A study of Mus musculus with 6 samples.

Results

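The 40 cell cycle and replication genes described here were taken by symbol from a given list. They run from the D-type cyclins that open the cycle, through the proteins that license and copy DNA, to the kinases, motors and ubiquitin enzymes of mitosis, and include the proliferation marker Mki67. All 40 were present among the 24411 symbols of the count table, and all 40 passed the filter on low counts that left 13403 genes for testing. They were measured by RNA sequencing of microglia, the resident macrophages of the brain, from C57BL/6J mice aged 8 weeks. One group carried a Mir137 knockout (gKO, n = 3 libraries) and the other was wild type at Mir137 (gWT, n = 3 libraries). The labels give no further allele, no Cre driver and no treatment, and do not tie the libraries to individual mice, so every p-value measures only how far these libraries spread, and that spread may be technical. In bulk RNA, fewer dividing cells and less RNA per dividing cell cannot be told apart.

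The libraries held 14603884 to 17652976 counts in gKO and 16328561 to 17306422 in gWT. Mir137 itself had a count of 0 in all 6 libraries, which checks nothing about the labels because such a short RNA is poorly captured in this kind of library. The 8 microglial markers, among them P2ry12, Tmem119 and Cx3cr1, summed to between 36574 and 38849 CPM (counts scaled to library size) in gKO and between 34950 and 37707 CPM in gWT. gKO replicate 3 stood apart from the rest. Its position on the first principal component was 91.5, against -37.7 to -3.5 in the other 5 libraries. Its log2 levels, taken relative to the mean of all 6 libraries, fell off with transcript length. Spearman's rho across genes was -0.53, against -0.03 to 0.31 in the others. That mean includes gKO replicate 3, so the rho of the others is not independent of it. Without gKO replicate 3, the sign of the fold change turned in 11 of the 40 members (27.5%) and in 23.4% of all genes tested. The values without gKO replicate 3 are given beside those of these 11.

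As background, a dividing cell passes from growth (G1) into DNA synthesis (S), a second gap (G2) and mitosis (M). Cyclin-dependent kinases drive each step and are switched on by cyclins, whose levels rise and fall with the cycle. The D cyclins with Cdk4 or Cdk6 inactivate the retinoblastoma protein, which frees E2F factors to switch on replication genes, while mitotic genes are switched on later by the B-MYB and FOXM1 complexes. Adult microglia renew themselves within the brain, and at any moment most of them rest outside the cycle. MicroRNAs such as miR-137 pair through their seed, bases 2 to 8, with messenger RNAs and usually lower their levels. miR-137 is best known in neurons and in tumours, where Cdk6 is among its reported targets.

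The mature strands of the deleted microRNA (RefSeq, GRCm38.p6, chromosome 3, plus strand) are shown with the seed in capitals, because the seed defines the sites searched for in the members. The main strand lies at chr3:118433901-118433923.
mmu-miR-137-3p: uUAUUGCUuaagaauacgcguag
mmu-miR-137-5p: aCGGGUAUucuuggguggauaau

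The letters that pair with the seed of the 3p strand, AGCAATA, occurred in the annotated 3′ UTR of 4 of the 40 members, or 10%. Among all 19876 genes with an annotated 3′ UTR, 1823 (9.17%) held them. The members had shorter UTRs, with a median of 645.5 bases against 872 over all genes. The 4 sites are printed in 5′ to 3′ order of the transcript (GENCODE M21 on GRCm38), with capitals for the match and, where present, for the A that follows it. A match is a description of the sequence and not a known target site.
Birc5, chr11:117855518-117855524, plus strand: acgtggacttaAGCAATAAggaagtgatg
Pcna, chr2:132249190-132249196, minus strand: atcgtggagatAGCAATAAaaaaatgttt
Rb1, chr14:73195797-73195803, minus strand: tcaataacaaaAGCAATAgacagcttccc
Tyms, chr5:30059721-30059727, minus strand: ggcagtggctgAGCAATAgagtgatctag

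RefSeq promoters, from 250 bases before to 50 bases after the annotated start, were matched for 33 of the 40 members, and motifs were searched on both strands with overlapping matches counted. The CHR letters TTTGAA, which recruit the mitotic complexes, occurred in 12 members (36.4%, against 18.1% of all 27025 promoters of this length). CCAAT boxes, bound by NF-Y, occurred in 24 members (72.7%, against 37.9%). Both motifs together were found in 12 members (36.4%, against 7.1%). The E2F letters TTTGGCGC occurred in 4 members (12.1%, against 0.5%), and GCGGGAA in 7 members (21.2%, against 4.7%). These shares describe the letters and say nothing about binding in microglia. One promoter of each kind is printed with its motifs in capitals, for Cdk1, the mitotic kinase, and for Mcm6, a helicase subunit whose call depended on gKO replicate 3. In Cdk1 the capitals mark CHR letters at -71 and -15 and CCAAT boxes, read as ATTGG, at -208, -80 and -48 from the start. In Mcm6 they mark E2F letters at -110 and -47 and CCAAT boxes at -57 and -14.
Cdk1, chr10:69352863-69353162, minus strand: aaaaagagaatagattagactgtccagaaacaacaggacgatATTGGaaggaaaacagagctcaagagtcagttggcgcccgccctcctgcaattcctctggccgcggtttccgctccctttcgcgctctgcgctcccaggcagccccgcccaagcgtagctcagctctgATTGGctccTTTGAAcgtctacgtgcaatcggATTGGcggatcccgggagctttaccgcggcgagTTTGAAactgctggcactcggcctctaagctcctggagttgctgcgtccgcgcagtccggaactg
Mcm6, chr1:128359656-128359955, minus strand: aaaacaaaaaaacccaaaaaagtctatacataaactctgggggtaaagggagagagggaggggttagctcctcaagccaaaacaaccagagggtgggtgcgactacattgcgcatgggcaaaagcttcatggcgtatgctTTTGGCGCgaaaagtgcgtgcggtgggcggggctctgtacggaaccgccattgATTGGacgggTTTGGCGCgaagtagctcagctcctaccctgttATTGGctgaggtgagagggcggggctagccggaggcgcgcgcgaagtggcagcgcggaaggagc

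The comparison of gKO with gWT asks how loss of miR-137 changes microglial RNA, and for these genes whether the RNA of dividing cells differed. Levels are CPM after scaling by the trimmed mean of M-values (TMM), and fold changes are log2 of gKO over gWT. With 3 libraries in each group, 0 of the 40 members were called higher and 0 lower by edgeR's quasi-likelihood test at an adjusted p under 0.05 over all genes. Over the whole table, edgeR called 53 genes (0.395%) higher and 31 (0.231%) lower, so a count of 0 among 40 is near the background. DESeq2, voom and voom with sample quality weights also called 0 members. Over the whole table DESeq2 called 179 of 14947 genes higher (1.2%) and 235 lower, and voom called 52 and 33. With sample quality weights voom called 261 (1.95%) higher and 152 (1.13%) lower. A count of 0 among 40 is near the background in these fits too. At an unadjusted p under 0.05, edgeR had 0 higher members against 5.16% of all genes, and 1 lower member, Ccnd2, against 5.74%.

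The fold changes of the members were small and both signs occurred. Their log2 fold changes ran from -1.18 to 0.45, with a median of 0.06 against 0.01 over all genes tested. Positive values numbered 24 and negative values 16. The median absolute log2 fold change was 0.14, against 0.24 over all genes, and the median standard error (SE) was 0.19, against 0.25. The 95% interval of the fold change lay within 2-fold in either direction for 36 members (90.0%, against 59.0% of all genes) and within 1.5-fold for 19 (47.5%, against 24.8%). The members were more abundant than most genes, with a median level per kilobase of transcript at percentile 72.2. Genes of like level were not compared, so these figures do not show the members to be unusually stable. The members whose interval reached past 2-fold were Ccnd2, Ccne2, Pcna and Tyms. For those 4 genes a 2-fold difference was not excluded by the interval, and for the other 36 it lay outside it.

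Added over all 40 genes, the levels came to 2311, 2279 and 2305 CPM in gKO and to 2206, 2299 and 2293 CPM in gWT. The means were 2298 ± 16.7 CPM in gKO, against 2266 ± 52.1 CPM in gWT (SD, n = 3 each), a log2 ratio of 0.02. The groups overlapped, and the difference between the means was smaller than the SD of the gWT libraries but larger than that of the gKO libraries. Under upper-quartile scaling the log2 ratio was -0.02, so its sign depends on the scaling.

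**Figure D1:**
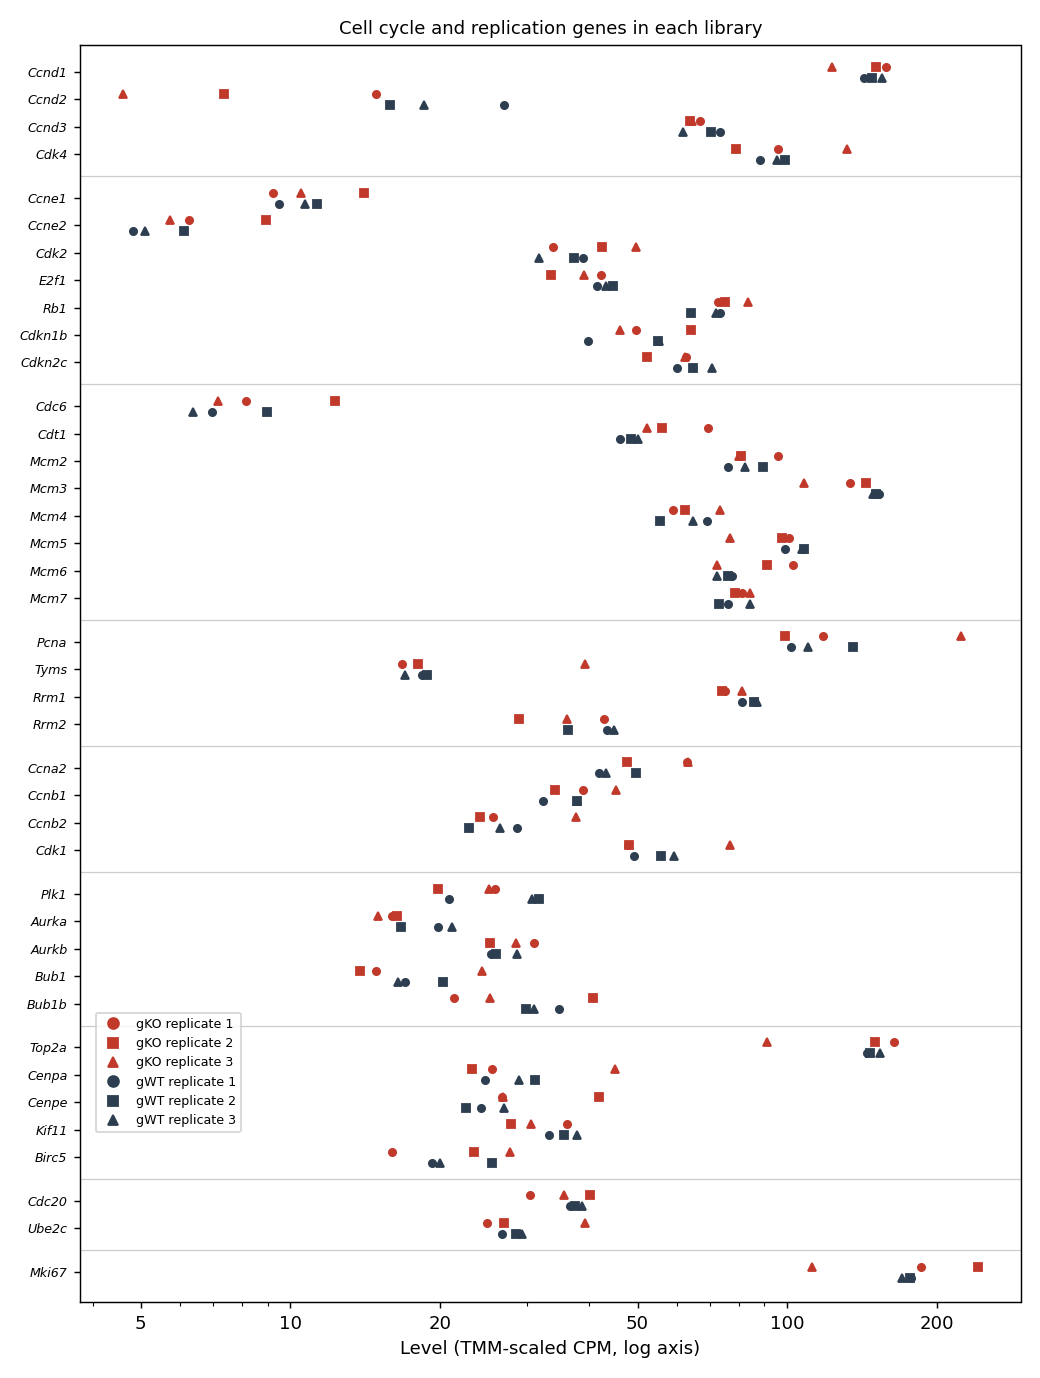
TMM-scaled CPM (log axis) of each of the 40 genes in each of the 6 libraries, grouped by role in the cycle, with one point per library. gKO replicate 3 is the highest of the 6 libraries in 14 genes and the lowest in 8.

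**Figure D2:**
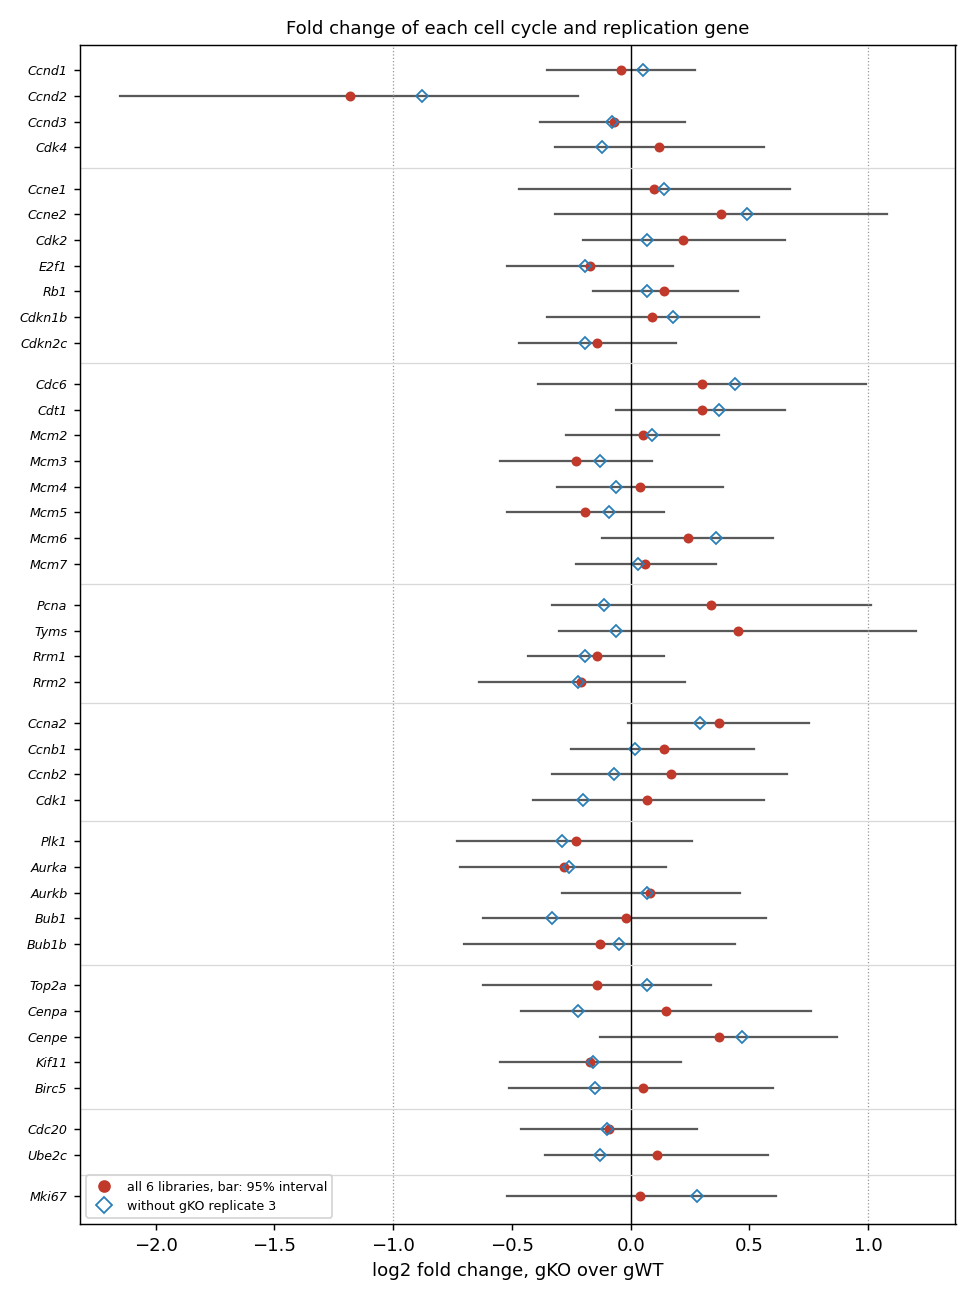
log2 fold change of gKO over gWT for each gene with its 95% interval from the edgeR fit, grouped by role. The interval of Ccnd2 (-2.15 to -0.22) excludes 0 without passing the adjusted threshold, and the intervals of the other 39 genes include 0.

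Levels between genes were compared per kilobase of the annotated transcript. By this measure 32 of the 40 members lay above the median gene tested, and their median stood at percentile 72.2. Pcna, the sliding clamp of the replication fork, was highest at 86.7 CPM per kb. It was followed by Cdk4 at 47.9, Mcm3 at 46.1 and Ccnd1 at 39.2 CPM per kb. The lowest were Ccne2, at 2.05, and Ccnd2, at 2.32 CPM per kb. Between these, the 6 subunits of the MCM helicase, which work as a ring with one copy of each, ranged from 17.8 CPM per kb for Mcm4 to 46.1 for Mcm3. Pcna also serves DNA repair, so its RNA is not a measure of replication alone.

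The D cyclins bind Cdk4 or Cdk6 and carry growth signals into the cycle, and of these Ccnd2 alone had groups that did not overlap. Ccnd1, the more abundant of these cyclins, had 158, 151 and 123 CPM in gKO and 143, 148 and 155 CPM in gWT. The groups overlapped, at a log2 fold change of -0.04 (SE 0.14, edgeR adjusted p = 0.943). Its interval of -0.35 to 0.27 lies within 1.5-fold in both directions. Without gKO replicate 3 the log2 fold change was 0.05.

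Ccnd2 had 14.9, 7.34 and 4.6 CPM in gKO and 26.9, 15.9 and 18.6 CPM in gWT. Every gKO library was below every gWT library, though gKO replicate 1 and gWT replicate 2 were close. The means were 8.96 ± 5.36 CPM in gKO, against 20.5 ± 5.71 CPM in gWT (SD, n = 3 each). With a log2 fold change of -1.18 (SE 0.42, 95% interval -2.15 to -0.22) and an edgeR adjusted p of 0.356, Ccnd2 was not called. It was -0.88 without gKO replicate 3 (edgeR adjusted p = 0.0925). Over all 17 alternatives it stayed negative, at -1.78 to -0.88, with adjusted p between 0.0362 and 0.99. It passed the threshold in 1 of them, where the length trend of every library was removed and the replicate number was kept as a block (log2 fold change -1.21, edgeR adjusted p = 0.0362, where 0.97% of all genes were called lower). The labels do not say whether the replicate numbers pair these samples.

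Markers of the vessel wall, astrocytes and oligodendrocyte precursors had lower mean sums in gKO. The 6 endothelial markers summed to 314 to 366 CPM in gKO and to 567 to 704 CPM in gWT, and all 6 had a negative fold change. The 7 mural and fibroblast markers summed to 90.0 to 128 CPM in gKO and to 228 to 317 CPM in gWT, 6 of them negative. All 6 astrocyte markers were negative and summed to 229 to 273 CPM in gKO and to 322 to 347 CPM in gWT. Oligodendrocyte precursor markers, of which 4 of 6 were negative, summed to 15.1 to 31.6 CPM in gKO and to 31.4 to 40.6 CPM in gWT, with overlap. Mature oligodendrocyte markers, with 4 of 5 positive, summed to 255 to 326 CPM in gKO and to 213 to 231 CPM in gWT. None of these markers was at 0 in all libraries. Their part in the difference of Ccnd2 was not tested.

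The remaining G1 genes did not separate the groups. Ccnd3 had 63.7 to 66.9 CPM in gKO and 61.6 to 73.3 CPM in gWT, with a log2 fold change of -0.07. Cdk4 had 96.0, 78.9 and 132 CPM in gKO and 88.4, 99.2 and 95.6 CPM in gWT, so that gKO held both the highest and the lowest value. Cdk4 had a log2 fold change of 0.12, and -0.12 without gKO replicate 3. The 4 genes of this group summed to 301 to 336 CPM in gKO and to 330 to 333 CPM in gWT.

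The 7 genes of G1/S control comprise the E cyclins, which fire the S-phase kinase Cdk2, the activator E2f1, the restraining pocket protein Rb1, and the kinase inhibitors Cdkn1b (p27) and Cdkn2c (p18). Rb1, the most abundant of them in CPM and a carrier of one AGCAATA match, had 72.7, 75.0 and 83.4 CPM in gKO and 73.3, 64.0 and 71.8 CPM in gWT. The groups overlapped, at a log2 fold change of 0.14 (SE 0.13, edgeR adjusted p = 0.773). In the same group 5 fold changes were positive and 2 negative, from -0.17 for E2f1 to 0.38 for Ccne2. Ccne2 had 5.73 to 8.92 CPM in gKO and 4.83 to 6.11 CPM in gWT, the lowest level of any member. The inhibitors had log2 fold changes of 0.09 for Cdkn1b and -0.14 for Cdkn2c, with intervals of -0.35 to 0.54 and -0.47 to 0.19. The group as a whole summed to 276, 290 and 297 CPM in gKO and to 268, 283 and 288 CPM in gWT.

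Origins of replication are licensed in G1, when Cdc6 and Cdt1 load the Mcm2 to Mcm7 helicase onto DNA. Mcm3 was the most abundant of these 8 genes, with 134, 144 and 108 CPM in gKO and 153, 151 and 149 CPM in gWT. All 3 gKO libraries were below all 3 gWT libraries, gKO replicate 3 by most. This gave a log2 fold change of -0.23 (SE 0.14, edgeR adjusted p = 0.616), and -0.13 without gKO replicate 3 (edgeR adjusted p = 0.33).

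Cdt1 and Mcm6 were positive. Cdt1 had 69.2, 56.1 and 52.3 CPM in gKO and 46.0, 48.4 and 50.2 CPM in gWT, and was the only member whose gKO libraries all lay above the gWT libraries. Its log2 fold change was 0.30 (SE 0.15, edgeR adjusted p = 0.551). Mcm6 had 103, 91.2 and 72.1 CPM in gKO and 77.5, 76.1 and 72.2 CPM in gWT. gKO replicates 1 and 2 were above every gWT library and gKO replicate 3 was just below them. Its log2 fold change was 0.24 (SE 0.16, edgeR adjusted p = 0.655).

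Leaving out gKO replicate 3 made Mcm6 the single called member, at a log2 fold change of 0.36 (edgeR adjusted p = 0.0359). In that fit 3.99% of all genes were called higher and 3.82% lower, so 1 of 40 members is not above the background. Over its 17 alternatives the adjusted p of Mcm6 ranged from 0.0248 to 0.998. When the length trend was removed as well, Mcm6 (0.37, edgeR adjusted p = 0.0248) and Cdt1 (0.42, edgeR adjusted p = 0.0409) were called, in a fit that called 4.02% of all genes higher and 3.63% lower. The adjusted p of Cdt1 ranged up to 0.998 over its alternatives.

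In the licensing group 6 fold changes were positive and 2 negative, with a median of 0.06 both with and without gKO replicate 3. The other MCM subunits had log2 fold changes of 0.05 for Mcm2, 0.04 for Mcm4 (-0.06 without gKO replicate 3), -0.19 for Mcm5 and 0.06 for Mcm7, each with an edgeR adjusted p of 0.71 or more. Cdc6, at 7.14 to 12.3 CPM in gKO and 6.38 to 8.97 CPM in gWT, had 0.30 (SE 0.30). The 8 genes summed to 651, 623 and 554 CPM in gKO and to 603, 611 and 616 CPM in gWT, or 609 ± 50 CPM in gKO, against 610 ± 6.54 CPM in gWT (SD, n = 3 each).

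Across all members, the groups failed to overlap in 1 gene that was higher in gKO, Cdt1, and in 3 that were lower, Ccnd2, Mcm3 and Aurka. Over all genes tested, 10% did not overlap in the higher direction and 11.3% in the lower, so non-overlap was not more frequent among these members than in the table as a whole.

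Pcna clamps the polymerase to DNA, Tyms makes thymidylate, and Rrm1 and Rrm2 form the ribonucleotide reductase that supplies deoxynucleotides. Pcna had 118, 99.1 and 224 CPM in gKO and 102, 136 and 110 CPM in gWT. gKO replicate 3 was the highest of the 6 libraries, gKO replicate 1 was within the gWT range and gKO replicate 2 just below it. A log2 fold change of 0.34 (SE 0.29, edgeR adjusted p = 0.75) turned to -0.11 without gKO replicate 3. Tyms, named after its values were seen, had the same shape, with 16.8, 18.1 and 39.2 CPM in gKO and 18.4, 18.8 and 17.0 CPM in gWT, and log2 fold changes of 0.45 with and -0.06 without that library. Rrm1 had 73.9 to 81.3 CPM in gKO and 81.1 to 87.1 CPM in gWT (log2 fold change -0.14), and Rrm2 had 28.9 to 42.8 CPM in gKO and 36.2 to 44.9 CPM in gWT (-0.21). These 4 genes summed to 253, 220 and 381 CPM in gKO and to 245, 277 and 259 CPM in gWT, with gKO replicate 3 standing apart.

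Pcna, Tyms, Rb1 and Birc5 are the 4 members that hold the miR-137 seed match printed above. With all libraries their log2 fold changes were 0.34, 0.45, 0.14 and 0.05 in that order. Without gKO replicate 3 they were -0.11, -0.06, 0.07 and -0.15. The positive values of Pcna, Tyms and Birc5 thus turned negative when only that library was left out. With the length trend removed as well, they were 0.004, -0.06 and 0.06. Birc5 was -0.05 with the length trend removed and all libraries kept. Rb1 kept its sign in all 17 alternatives, at 0.03 to 0.22, and was called in 0 of them.

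Cyclin A2 serves S phase and the entry into mitosis, and the B cyclins with Cdk1 drive mitosis itself. All 4 of these genes had a positive fold change with all libraries, and their median was 0.15, but -0.03 without gKO replicate 3. Cdk1 had 47.9, 48.0 and 76.6 CPM in gKO and 49.1, 55.8 and 59.1 CPM in gWT. gKO replicates 1 and 2 were below the lowest gWT library, and gKO replicate 3 was above the highest. Cdk1 thus had a log2 fold change of 0.07 (SE 0.21, edgeR adjusted p = 0.937), and -0.20 without gKO replicate 3. Ccna2, named after its values were seen, was the member of this group with the smallest p. It had 62.9, 47.7 and 63.1 CPM in gKO and 41.9, 49.7 and 43.2 CPM in gWT. One gKO library lay inside the gWT range, and the log2 fold change was 0.37 (SE 0.17, edgeR adjusted p = 0.481). Without gKO replicate 3 it stayed positive, at 0.29 (edgeR adjusted p = 0.228). Ccnb1 and Ccnb2 had log2 fold changes of 0.14 and 0.17, which were 0.02 and -0.07 without gKO replicate 3.

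The mitotic kinases Plk1, Aurka and Aurkb build the spindle and free the chromosomes, and Bub1 and Bub1b hold anaphase back until every chromosome is attached. In this group 4 of 5 fold changes were negative, with a median of -0.13. Bub1b, the most abundant in CPM, had 21.4, 40.7 and 25.2 CPM in gKO and 34.7, 29.8 and 30.9 CPM in gWT. One gKO library was above all gWT libraries and the other 2 below them, at a log2 fold change of -0.13 (SE 0.25, edgeR adjusted p = 0.905) that became 0.05 without gKO replicate 1. Aurka had 16.0, 16.4 and 15 CPM in gKO and 19.8, 16.7 and 21.2 CPM in gWT. Its groups did not overlap, by a margin of under 1 CPM, and its log2 fold change was -0.28 (SE 0.19, edgeR adjusted p = 0.658). Plk1 had -0.23, Aurkb 0.08 and Bub1 -0.02, and Bub1 had -0.33 without gKO replicate 3. The group summed to 109, 116 and 118 CPM in gKO and to 118, 125 and 128 CPM in gWT. Its median was -0.26 without gKO replicate 3.

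Top2a untangles sister chromosomes, Cenpa is the centromeric histone, Cenpe and Kif11 are motors of the spindle, and Birc5 (survivin) belongs to the chromosomal passenger complex. Top2a had 164, 150 and 91.3 CPM in gKO and 145, 147 and 154 CPM in gWT. gKO replicate 3 was well below all other libraries and the other gKO libraries were within or above the gWT range. Its log2 fold change was -0.14 (SE 0.21, edgeR adjusted p = 0.868), and 0.07 without gKO replicate 3. Within this group the log2 fold changes ran from -0.17 for Kif11 to 0.37 for Cenpe, with 3 positive and 2 negative. Cenpa, whose gKO libraries held 25.5, 23.2 and 45 CPM against 24.7, 31.1 and 28.8 CPM in gWT, had 0.15, and -0.22 without gKO replicate 3.

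Cdc20 and Ube2c act with the anaphase-promoting complex, which ends mitosis by marking cyclin B for destruction. Cdc20 had 30.4, 40.1 and 35.6 CPM in gKO and 36.6, 37.5 and 38.6 CPM in gWT. The gKO libraries spread around the gWT range (log2 fold change -0.09, SE 0.16, edgeR adjusted p = 0.895). Ube2c had 24.9 to 39.2 CPM in gKO and 26.7 to 29.2 CPM in gWT, with a log2 fold change of 0.11, and -0.13 without gKO replicate 3. Together the 2 genes averaged 65.7 ± 9.77 CPM in gKO, against 65.7 ± 2.29 CPM in gWT (SD, n = 3 each).

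Mki67 encodes Ki-67, which coats mitotic chromosomes and is the usual marker of cycling cells. It had 186, 242 and 112 CPM in gKO and 178, 177 and 170 CPM in gWT. gKO replicates 1 and 2 were above the gWT libraries and gKO replicate 3 was below them, while the gWT libraries lay close together. The means were 180 ± 64.9 CPM in gKO, against 175 ± 4.63 CPM in gWT (SD, n = 3 each). For Mki67 the log2 fold change was 0.04 (SE 0.25, 95% interval -0.52 to 0.61, edgeR adjusted p = 0.971), and its sign was negative under upper-quartile scaling, voom and the replicate block. Without gKO replicate 3 it was 0.28 (edgeR adjusted p = 0.0894), where gKO replicate 2 was the highest library, and without gKO replicate 2 it was -0.23. Over the alternatives the adjusted p of Mki67 ranged from 0.0894 to 1.0. Mki67 and Top2a, both markers of cycling cells, were lowest in gKO replicate 3, whereas Pcna, Cdk1, Cenpa and Tyms were highest there.

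The gKO libraries spread more than the gWT libraries. The median coefficient of variation of the members was 17.7% over the 3 gKO libraries and 8.45% over the gWT libraries, against 26.6% and 11.1% over all genes. Over gKO replicates 1 and 2 alone it was 12.5% (12.4% over all genes). A median from 2 libraries tends to be lower than one from 3, so this value is not directly comparable with the others. gKO replicate 3 was the lowest or the highest of the 6 libraries in 55.0% of the members and in 63.2% of all genes. Its log2 ratio to the mean of gKO replicates 1 and 2 was 1.17 for Tyms, 1.05 for Pcna, 0.89 for Cenpa and 0.68 for Cdk1. It was -0.78 for Top2a, -0.93 for Mki67 and -1.28 for Ccnd2.

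These deviations varied with transcript length. Across the 40 members, the log2 ratio of gKO replicate 3 had a Spearman rho of -0.46 with transcript length, and across 12944 tested genes with a length it was -0.57. Genes are not independent replicates, and all points share the same 3 libraries, so these values describe the library. The shorter 20 members had a median log2 ratio of 0.08 and the longer 20 of -0.22. Mki67, with the longest annotated transcript of the members at 10061 bases, was among the lowest, and Pcna, at 1518 bases, among the highest. Tyms, at 3163 bases, and Cdk1, at 4375 bases, were high without being short. With each library's length trend removed, edgeR called 0 of the 40 members, where 1.14% of all genes were called higher and 1.01% lower. At an unadjusted p under 0.05 there were 2 higher and 1 lower members, against 8.3% and 7.6% of all genes. Their median log2 fold change was 0.05.

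**Figure D3:**
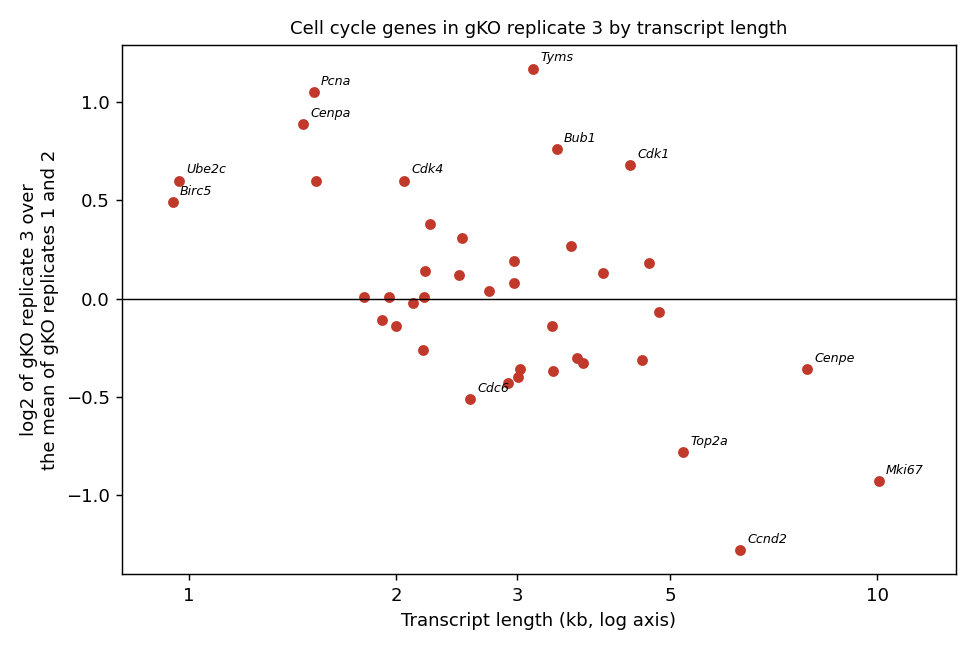
log2 ratio of gKO replicate 3 over the mean of gKO replicates 1 and 2 for each of the 40 genes, against the length of its annotated transcript in kb (log axis). Mki67, Top2a and Ccnd2 lie low among long transcripts, and Tyms and Pcna lie highest.

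Genes of the same pathway outside the 40 were read from lists of other regulators, replication genes, mitosis genes, and checkpoint and repair genes. edgeR called 0 of 43 tested regulators, 0 of 55 replication genes, 0 of 69 mitosis genes and 0 of 14 checkpoint and repair genes. Their median log2 fold changes were 0.05, 0.08, -0.03 and 0.01, against 0.01 over all genes tested. At an unadjusted p under 0.05 there were 4 higher regulators, 1 higher replication gene, 2 lower mitosis genes and 1 higher checkpoint gene, which compares with 5.16% of all genes higher and 5.74% lower. DESeq2 called 2 regulators higher (1.2% of all genes) and 0 genes of the other lists. voom with sample quality weights called 3 regulators higher (1.95% of all genes) and 1 replication gene lower (1.13%). Without gKO replicate 3, edgeR called 3 regulators and 1 replication gene higher, and 1 replication and 1 mitosis gene lower, in a fit that called 3.99% of all genes higher and 3.82% lower.

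The 4 regulators at an unadjusted p under 0.05, of 43 tested, were named for their small p. Cdkn1a and Mdm2 are among them. Both are p53 targets, but a p53 response was not tested. Cdkn1a, which encodes the kinase inhibitor p21 and is a p53 target, had 60.2, 59.0 and 61.4 CPM in gKO and 39.7, 44.4 and 37.1 CPM in gWT. The gKO libraries agreed closely and all lay above gWT, gKO replicate 3 included. Its log2 fold change was 0.58 (SE 0.14, 95% interval 0.26 to 0.90, edgeR adjusted p = 0.164). Cdkn1a was past the threshold in DESeq2 (adjusted p = 0.0266) and in edgeR without gKO replicate 3 (0.55, adjusted p = 0.0136), and in 4 of 17 alternatives in all. The value ran from 0.52 to 0.65 over all 17, with adjusted p from 0.00492 to 0.771.

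E2f3, an activating E2F, had 52.3, 59.7 and 52.9 CPM in gKO and 37.7, 37.2 and 37.4 CPM in gWT, again without overlap. Its log2 fold change was 0.55 (SE 0.14, edgeR adjusted p = 0.175), and it was 0.49 to 0.62 over the alternatives. E2f3 passed the threshold in 5 of the 17, with adjusted p from 0.011 to 0.771. Mdm2, the ubiquitin ligase that restrains p53 and is itself a p53 target, had 65.1, 84.6 and 63.8 CPM in gKO and 54.4, 48.6 and 50.2 CPM in gWT (log2 fold change 0.48, SE 0.16, edgeR adjusted p = 0.318). It passed in 3 of 17 alternatives, with adjusted p from 0.0138 to 0.866. Wee1, the kinase that holds Cdk1 inactive, had 31.4, 29.2 and 33.4 CPM in gKO and 22.6, 25.4 and 20.4 CPM in gWT (0.46, SE 0.17, edgeR adjusted p = 0.366). It passed in 0 of 17. These 4 genes were named for their small p, so that their groups do not overlap follows from the choice.

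**Figure D4:**
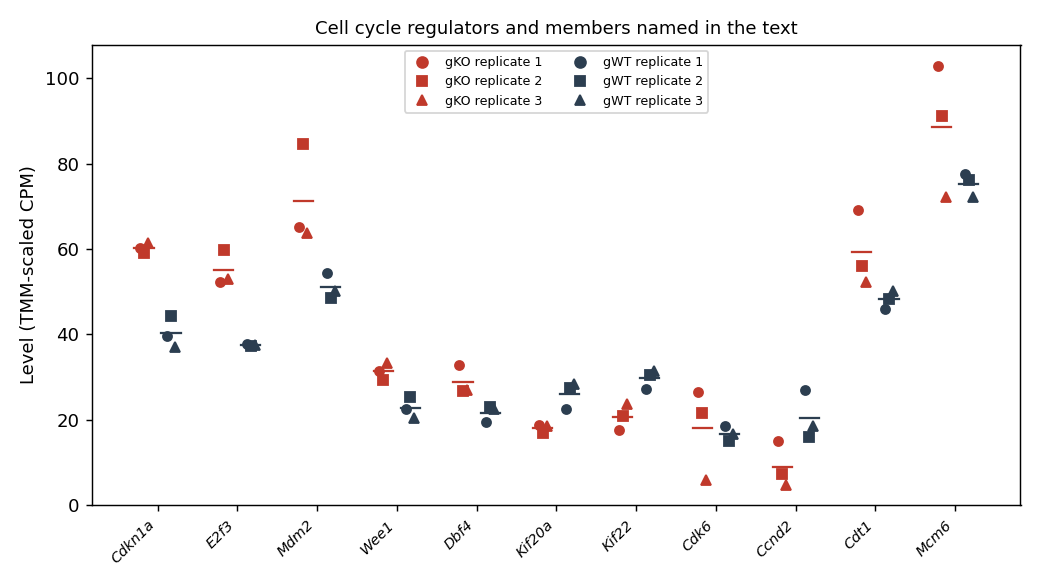
TMM-scaled CPM of Cdkn1a, E2f3, Mdm2 and other regulators and members named in the text, with one point per library, gKO left of gWT, and the mean of each group. The 3 gKO libraries of Cdkn1a and E2f3 sit above all 3 gWT libraries, and those of Ccnd2 sit below.

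Among the other replication genes, Dbf4, the partner that activates the origin-firing kinase Cdc7, had 32.8, 26.8 and 26.9 CPM in gKO and 19.4, 23.0 and 22.4 CPM in gWT (log2 fold change 0.42, SE 0.18, edgeR adjusted p = 0.443). Gins2, a subunit of the replicative helicase, had 7.16, 7.06 and 17.5 CPM in gKO and 19.0, 17.3 and 15 CPM in gWT. Here gKO replicate 3 lay within the gWT range and the other gKO libraries far below it. Gins2 had a log2 fold change of -0.69 (edgeR adjusted p = 0.558), and -1.27 without gKO replicate 3 (edgeR adjusted p = 0.00477), with adjusted p from 0.00306 to 0.998 over the alternatives. Wdhd1, which couples the polymerase to the helicase, had 24.6, 32.4 and 12.7 CPM in gKO and 16.1, 17.8 and 15.3 CPM in gWT. Its log2 fold change was 0.50 (edgeR adjusted p = 0.639), and 0.79 without gKO replicate 3 (edgeR adjusted p = 0.0178, range over the alternatives 0.0178 to 0.998).

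The mitotic motor genes Kif20a and Kif22 were named for their small p from 69 tested mitosis genes, 30 positive and 39 negative. Both were lower in every gKO library than in any gWT library, which follows from the choice. Over all genes tested, 11.3% were lower in this way. Kif20a, needed for the final cut between daughter cells, had 18.7, 17.0 and 18.5 CPM in gKO and 22.4, 27.4 and 28.3 CPM in gWT (log2 fold change -0.53, SE 0.18, edgeR adjusted p = 0.326). Kif22, which pushes chromosome arms outward, had 17.5, 20.8 and 23.8 CPM in gKO and 27.2, 30.5 and 31.5 CPM in gWT (-0.52, SE 0.18, edgeR adjusted p = 0.345). Only Kif22 of this pair was called without gKO replicate 3 (-0.64, edgeR adjusted p = 0.0315), and its adjusted p ran up to 0.877 over the alternatives.

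Of 5 genes reported elsewhere as miR-137 targets, edgeR called 0, with 0 at an unadjusted p under 0.05, and DESeq2 and voom with sample quality weights called 0. Their median log2 fold change was 0.11. Cdk6, which pairs with the D cyclins, had 26.6, 21.5 and 5.94 CPM in gKO and 18.5, 15 and 16.7 CPM in gWT. gKO replicates 1 and 2 were above every gWT library, and gKO replicate 3 was far below. Its transcript is 11525 bases long. With all libraries the log2 fold change was 0.11 (SE 0.46, 95% interval -0.95 to 1.16), an interval that takes in a 2-fold higher level in gKO. Without gKO replicate 3 it was 0.51 (edgeR adjusted p = 0.117, range over the alternatives 0.117 to 0.998). Cdc42, a small GTPase, had 704, 698 and 920 CPM in gKO and 612, 654 and 623 CPM in gWT (0.30, edgeR adjusted p = 0.511). Its highest library was gKO replicate 3, without which the value was 0.15 (edgeR adjusted p = 0.144, range over the alternatives 0.0278 to 0.996). The chromatin enzymes Ezh2 and Kdm1a had -0.27 and 0.12, and the transcription factor Mitf had 0.07.

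The authors' deposited lists of changed genes held 75 genes higher and 201 lower in gKO, which is 0.454% and 1.22% of the 16514 genes with a count. In the authors' deposited table, 0 of the 40 members and 0 genes of the other pathway lists were among them. Those lists contain genes with an absolute log2 fold change of 1.0 or more, a size that Ccnd2 alone reached among the members here.

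Markers of blood cells, whose precursors divide, differed between lists. The dividing neutrophil precursor list, whose 4 tested genes (of 5) were all positive, summed to 25.4 to 33.9 CPM in gKO and to 16.1 to 22.5 CPM in gWT, and none of its 5 genes was at 0 in all libraries. Mature neutrophil markers, all 8 of 8 tested positive, summed to 515, 512 and 982 CPM in gKO and to 258, 328 and 309 CPM in gWT, and monocyte markers, all 6 positive, to 138, 128 and 199 CPM in gKO and to 75.2, 85.8 and 84.0 CPM in gWT. Both lists were highest in gKO replicate 3, as was the precursor list (33.9 CPM, against 26.2 and 25.4 CPM in gKO replicates 1 and 2). Erythroid markers, with 1 positive and 3 negative of 4 tested genes and Hba-a1 at 0, summed to 39.8, 39.0 and 133 CPM in gKO and to 88.3, 77.8 and 100 CPM in gWT. Of 2 tested B cell genes 1 was positive and 1 negative. The erythroid and B cell sums were also highest in gKO replicate 3, the latter at 57.4 CPM. The part of blood cells in the levels of the cell cycle genes was not tested.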

How the data were processed

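RNA from microglia of 3 gKO and 3 gWT libraries was sequenced. Per the submitters' processing notes, STAR 2.7.9a, RSEM and DESeq2 were used with the builds GRCm38 and mm10. For both the annotation and the strand setting, the answer is not given in the sources used here. Overlapping and antisense genes therefore cannot be separated. The authors deposited expected counts per gene symbol, which were not normalized and were rounded to whole numbers here. Per the file headers, the authors' deposited lists hold a mean normalized signal, a log2 fold change, its SE and statistic (scores), and p-values. Library totals were 14603884 to 17652976, and no column lacked a sample.

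Counts were tested with edgeR 4.0.16 (R 4.3.3), with TMM scaling, the default filter and a robust quasi-likelihood test on genotype. The Benjamini-Hochberg method adjusted p over 13403 genes, with a threshold of 0.05. SE is the absolute log2 fold change over the square root of F, and 95% intervals use its t quantile. DESeq2 1.42.0, limma 3.58.1 (voom), other scalings and filters, a replicate block and each library left out were alternatives, 14 in all. A further 3 that remove each library's length trend (lowess, span 0.5) were chosen after seeing the data. The edgeR fit was tested on simulated data. Lengths, UTRs and coordinates (1-based) come from GENCODE M21 (GRCm38), matched for all 40 members. miRNA and promoter sequences come from RefSeq (GRCm38.p6).

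Members and lists were chosen with earlier results of these data known. Values per library were given for the most abundant member of each role, members with an unadjusted p under 0.05 and members called under any alternative, and for up to 6 genes of each other list by p, plus Cdk6 and Cdkn1a. The per-library values of other members (Tyms, Ccna2, Cdk4, Aurka, Cenpa) were chosen after they were seen. One gene that this rule names is not reported here. Same-numbered libraries deviated together with correlations of 0.053, -0.048 and 0.015, and differently numbered ones with -0.097 to 0.094. The labels state no pairing. With gKO replicate 3 outlying, these values cannot decide whether the numbers pair the samples.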

Additional observations from a re-analysis of the deposited data

How the results depend on the processing

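Over 17 alternatives, 412 of 459 values of the 27 genes followed (1 of them not reported here) kept their direction and their side of the threshold, 24 were past the threshold only in the alternative, and 23 in 9 genes turned round. Counts over the whole table moved most. The 53 higher and 31 lower genes became 179 and 235 with DESeq2, 261 and 152 with voom with quality weights, 11 and 7 with the replicate block, 153 and 136 with the length trend removed, 125 and 130 with that and the replicate block, and 539 and 486 with that and without gKO replicate 3. With no filter 47 were lower. Leaving out one library gave 0 to 551 higher and 0 to 528 lower. It was 551 and 528 without gKO replicate 3, 4 and 1 without gKO replicate 1 or 2, and 0 and 0 without any one gWT library, where edgeR had 729 to 921 genes at an unadjusted p under 0.05. The cause of these shifts was not tested.

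Members called higher numbered 0 to 1 with one library left out, and 2 with the length trend removed and without gKO replicate 3. With the length trend removed and the replicate block, 1 was lower. Higher regulators numbered 2 with DESeq2, 3 with voom with quality weights, 1 with the length trend removed, 3 with that and without gKO replicate 3, and 0 to 3 with one library left out. Leaving out one library gave 0 to 1 replication gene higher, 0 to 1 lower and 0 to 1 mitosis gene lower. Each was 1 with the length trend removed and without gKO replicate 3, where 1 reported target, Cdc42, was higher. voom with quality weights called 1 replication gene lower. The members' median of 0.06 was 0.02 with upper-quartile scaling, -0.02 with voom with quality weights, 0.01 with the length trend removed and without gKO replicate 3, and -0.07 to 0.09 with one library left out. The log2 ratio of the summed level was -0.02 with upper-quartile scaling.

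Directions turned round as follows. With voom with quality weights, Ccnd1 was 0.03, Pcna -0.04, Cdk1 -0.16 and Top2a 0.01. With the length trend removed and without gKO replicate 3, Ccnd1 was 0.03, Cdk1 -0.23 and Top2a 0.02. Mki67 was -0.0008 with upper-quartile scaling, and -0.03 with voom and with the replicate block, where Cdk6 was -0.10 and -0.11. With one library left out, Ccnd1 ranged from -0.12 to 0.05, Pcna from -0.11 to 0.56, Cdk1 from -0.20 to 0.19 and Top2a from -0.30 to 0.07, each turning without gKO replicate 3 (Cdk1 also without gWT replicate 1). Bub1b ranged from -0.45 to 0.05 and Cdc20 from -0.19 to 0.01, turning without gKO replicate 1. Mki67 ranged from -0.23 to 0.28, turning without gKO replicate 2, Cdk6 from -0.29 to 0.51, turning without gKO replicate 1 or 2, and Mitf from -0.0009 to 0.19, turning without gWT replicate 2. The replicate block alone changed no call of a named gene. With the length trend removed, Ccnd2 was called with the block and not without it, and E2f3 without it and not with it. With 3 libraries per group and an outlying gKO library, the members' SE of 0.12 to 0.42 limits what could be seen.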
